A study of Corylus heterophylla with 6 samples.

Results

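Auxin transport, synthesis and response genes were examined at the sites where the hazel auxin response factor ChARF3 was mapped by ChIP-Seq in developing ovules. The set held 10 genes, each represented by 1 peak. They were LAX5 (Cor0100160.1), PIN7 (Cor0204530.1), a pair of YUC10 genes (Cor0034390.1 and Cor0179200.1), IAA9 (Cor0110070.1), IAA30 (Cor0096370.1), a pair of IAA4 genes (Cor0086990.1 and Cor0140470.1) and a pair of SAUR32 genes (Cor0157210.1 and Cor0036810.1). The genes were chosen from the peak calls themselves: each was the closest gene of a peak that had passed the q limit, and the study had listed it as an auxin-related candidate after adding transcript data, which were not analysed here. That each gene had a peak is therefore a condition of the choice and not a result. The 10 peaks stood among 3669 peaks in all.

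In ChIP-Seq, DNA fragments held by a cross-linked protein are recovered with an antibody, and chromatin that skipped this step, the input, serves as background. The polyclonal antibody had been raised against residues 1 to 380 of ChARF3. Ovules without any treatment were sampled at ovule formation (Ov1.1), early ovule growth (Ov2.1) and rapid ovule growth (Ov3.1), with 1 ChIP library and 1 input library per stage. Chromatin was sheared to 200 to 600 bp. The sample labels give the plants as wild germplasm of Corylus heterophylla, whereas the methods of the study name the hybrid cultivar "Dawei" (C. heterophylla × C. avellana), grown in an orchard and pollinated by hand. Ovules were pooled by stage, and the reads were aligned to a C. heterophylla assembly in contigs. No stage had a replicate, so no test between stages was possible. Peak lists carry no transcript levels, and the ovule label was not checked against markers.

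Auxin (indole-3-acetic acid, IAA) is made largely from indole-3-pyruvate by the YUCCA flavin monooxygenases, enters cells through the AUX1/LAX influx carriers and leaves them through the PIN carriers. Inside the nucleus, Aux/IAA proteins hold auxin response factors (ARFs) in check, and auxin drives the degradation of the Aux/IAA proteins through the TIR1/AFB receptors. Aux/IAA and SAUR genes are themselves early auxin response genes, with ARF binding sites in many of their promoters. In Arabidopsis and tomato, auxin acts in ovule growth and in the step from flower to fruit.

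The Ov1.1 list held 1412 peaks, the Ov2.1 list 1364 and the Ov3.1 list 893. Each peak has a fold enrichment and a q-value, the p-value adjusted over the genome. The fold enrichment is a linear ratio of ChIP fragments plus 1 to the background derived from the input plus 1. Where the background is far below 1 fragment, it is therefore much smaller than fragments divided by background. The number of ChIP fragments at the summit and the background number were solved from those deposited values. Every interval is an exact Poisson 95% interval of the fragment number, or the fold enrichment at its bounds, and covers counting error only. The lists differ in scale. An Ov1.1 peak had no fewer than 12 fragments, whereas peaks of the Ov2.1 and Ov3.1 lists went down to 3. The commonest background was 3.68, 0.195 and 0.102 fragments in the order of the stages. Values were therefore ranked only within a list.

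Among the transport genes, the LAX5 peak at Ov1.1 had the highest fold enrichment of the 5 auxin peaks of that stage. LAX5 is named for the AUX1/LAX family, which carries auxin into the cell. The peak lay at tig00006996:1455421-1455675, in the promoter by the annotation of the study, and was 255 bp wide, with only 8.50% of the Ov1.1 peaks narrower. It had 21 fragments (interval 13.0 to 32.1) over a background of 5.37. This gave a fold enrichment of 3.45 (interval 2.20 to 5.19) and q = 0.000471. LAX5 thus stood above 70.4% of its list by fold enrichment and above 79.7% by q. It was also an isolated site. The nearest peak of its own stage lay 213 kb away, the nearest Ov2.1 peak 160 kb and the nearest Ov3.1 peak 164 kb.

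The gene listed as PIN7 had the highest fold enrichment of the 4 auxin peaks at Ov2.1. The annotation of the study describes it as PIN-LIKES 7. PIN-LIKES proteins sit in the endoplasmic reticulum and affect auxin levels within the cell, and they are a family apart from the PIN efflux carriers of the plasma membrane. The peak lay at tig00006953:89084-89409 in the promoter, 326 bp wide, with 4.55% of the list narrower. It had 5 fragments (interval 1.62 to 11.7) over 0.303, a fold enrichment of 4.61 (interval 2.01 to 9.72) and q = 0.00242. By both measures it stood above 80.0% of the Ov2.1 peaks. A second Ov2.1 peak lay 39.6 kb away at lower coordinates, at tig00006953:49100-49489. That neighbour had nearly the same values, 5 fragments over 0.310 and a fold enrichment of 4.58. Another gene was its closest gene. No Ov3.1 peak was listed on this contig, and the nearest Ov1.1 peak lay 150 kb from the PIN7 peak.

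**Figure D1:**
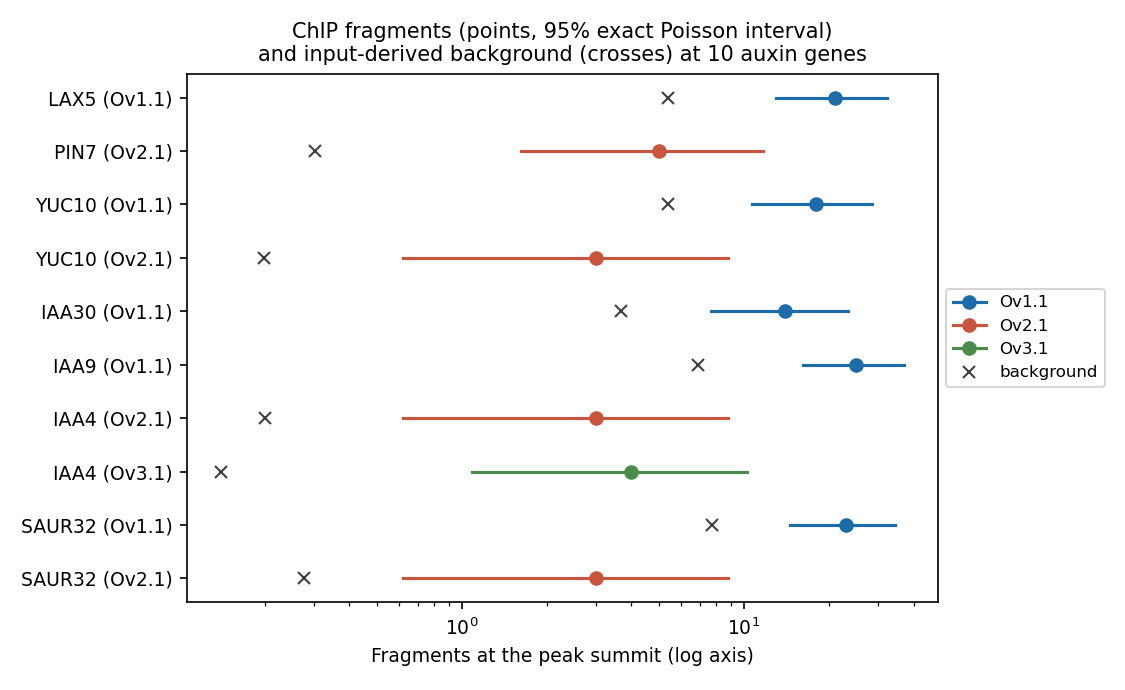
ChIP fragments at the summit of the 10 auxin gene peaks on a log axis (points, with exact Poisson 95% intervals) and the background derived from the input (crosses), ordered by role. The 5 Ov1.1 peaks had 14 to 25 fragments and the later ones 3 to 5, over backgrounds that were lower as well. Every interval lay above its background, which follows from the peak limit set against that same background and is not a result.

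Of the auxin synthesis genes, both members were YUC10 genes, at different loci and stages. YUC10 encodes a YUCCA flavin monooxygenase, and in Arabidopsis the gene is expressed in the endosperm. The YUC10 gene Cor0034390.1 had its peak at Ov1.1 in the promoter, at tig00007297:3273902-3274319. The peak had 18 fragments (interval 10.7 to 28.4) over a background of 5.37, a fold enrichment of 2.98 (interval 1.83 to 4.62) and q = 0.00699. Its background equalled that of LAX5 to 3 digits, so the lower fold enrichment rested on the 18 against 21 fragments, whose intervals overlapped widely. It stood above 30.5% of its list by fold enrichment and above 39.2% by q. An Ov3.1 peak of 4 fragments lay 37.3 kb away at higher coordinates, at tig00007297:3311640-3311935, with a fold enrichment of 3.98. The nearest Ov1.1 peak was 146 kb away and the nearest Ov2.1 peak 274 kb.

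The YUC10 gene Cor0179200.1 had an Ov2.1 peak at tig00006933:343271-343864 that the study classed as distal intergenic. At 594 bp it was the widest of the Ov2.1 auxin peaks. It held 3 fragments (interval 0.619 to 8.77) over 0.199, the smallest number in that list. The fold enrichment was 3.34 (interval 1.35 to 8.15) and q = 0.0309, which placed it above 24.0% of the Ov2.1 peaks by fold enrichment and 19.7% by q. Like LAX5, this site had no other peak within 50 kb. The nearest one was an Ov3.1 peak 63.3 kb away, and the nearest Ov1.1 and Ov2.1 peaks lay at 148 kb and 163 kb.

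The largest group were the Aux/IAA repressors, with 4 genes and peaks in all 3 lists. The IAA9 peak at Ov1.1 had the most fragments and the lowest q of the Ov1.1 members. Silencing of IAA9 in tomato gives fruit without pollination. The peak lay downstream of the gene by the annotation of the study, at tig00007074:661901-662238. It had 25 fragments (interval 16.2 to 36.9) over a background of 6.87, a fold enrichment of 3.31 (interval 2.18 to 4.82) and q = 0.000179. It stood above 83.4% of the Ov1.1 list by q but 59.1% by fold enrichment, and its background was 1.87 times the commonest value of the list. IAA9 also had the nearest neighbour of another stage. An Ov3.1 peak of 3 fragments (fold enrichment 3.59, q = 0.00959) lay 5.49 kb away at tig00007074:656101-656409. On the same side, 47.2 kb away, lay an Ov1.1 peak of 18 fragments within another gene (fold enrichment 3.23).

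IAA30 belongs to the Aux/IAA proteins that in Arabidopsis lack the part recognised for auxin-dependent degradation. Its Ov1.1 peak lay in the promoter at tig00006927:1218816-1219198. With 14 fragments (interval 7.65 to 23.5) it had the fewest of the Ov1.1 members, and only 4.39% of the Ov1.1 peaks had fewer. Its background was the commonest of the list, 3.68, so that its fold enrichment of 3.21 (interval 1.85 to 5.23) equalled the list median. In all, 77 Ov1.1 peaks carried this same pair of fold enrichment and p. Its q of 0.0112 was the highest of the 5 Ov1.1 members. At 14.8 kb lay an Ov3.1 peak of 5 fragments over 0.102, at tig00006927:1203745-1204040. The fold enrichment of that neighbour, 5.44, was above that of 93.1% of the Ov3.1 peaks.

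The IAA4 genes had peaks at the later stages. The Ov2.1 peak of Cor0086990.1 was distal intergenic, at tig00007265:2124156-2124490. It had 3 fragments (interval 0.619 to 8.77) over 0.201, a fold enrichment of 3.33 (interval 1.35 to 8.13) and q = 0.0309, and stood above 23.9% of its list by fold enrichment. Fragment number and background were almost those of the Ov2.1 YUC10 peak, and the same q was shared by 288 peaks of the list. An Ov2.1 peak of 4 fragments lay 14.8 kb away at tig00007265:2108783-2109370 (fold enrichment 3.97), and an Ov3.1 peak 67.5 kb away on the other side.

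The other IAA4 gene, Cor0140470.1, was the single auxin member at Ov3.1. Its peak lay downstream of the gene at tig00007130:285295-285758. It had 4 fragments (interval 1.09 to 10.2) over 0.141, a fold enrichment of 4.38 (interval 1.83 to 9.86) and q = 0.00150. It ranked above 76.1% of the Ov3.1 list by fold enrichment and 76.3% by q, and 59.4% of that list had fewer fragments. An Ov1.1 peak of 16 fragments (fold enrichment 3.36) lay 49.2 kb away, just inside the window of 50 kb, at tig00007130:334993-335294. The nearest Ov2.1 peak was 212 kb away.

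**Figure D2:**
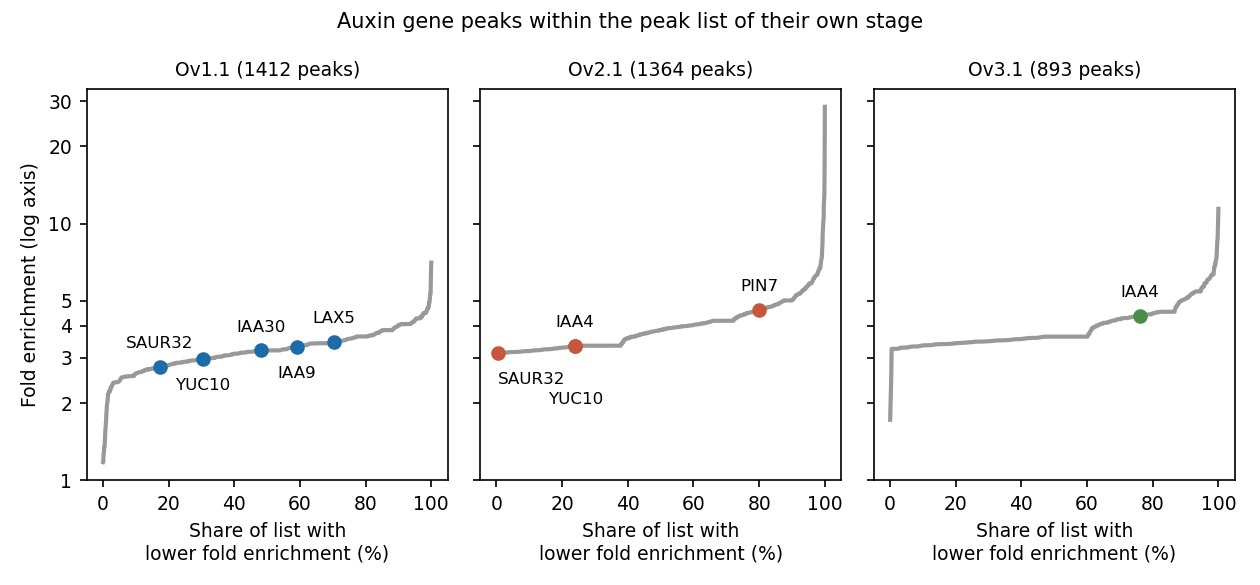
Fold enrichment of the auxin gene peaks (points, log axis) against the share of peaks of the same stage with a lower value, with all peaks of the list as the grey line. LAX5 (70.4%), PIN7 (80.0%) and the Ov3.1 IAA4 peak (76.1%) lay highest in their lists, and the Ov2.1 SAUR32 peak (0.513%) lay at the bottom of its own.

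The SAUR32 genes had the lowest fold enrichment of the members in both of their lists. SAUR genes encode small proteins of the early auxin response, and Arabidopsis SAUR32 acts in the apical hook of seedlings. The Ov1.1 peak of Cor0157210.1 lay in the promoter at tig00007167:751631-751917. It had 23 fragments (interval 14.6 to 34.5), more than 89.7% of the list, over a background of 7.70. That background was 2.09 times the commonest value of the list and above that of 92.6% of its peaks. The fold enrichment was accordingly 2.76 (interval 1.79 to 4.08), above 17.3% of the list, while q = 0.00470 was below that of 45.9%.

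This SAUR32 site had the most peaks around it, with 5 within 100 kb. An Ov1.1 peak of 17 fragments (fold enrichment 3.85) lay 40.1 kb away at tig00007167:711081-711548, and an Ov3.1 peak of 6 fragments 47.3 kb away at tig00007167:704027-704365. The fold enrichment of the Ov3.1 peak was 6.35, above 98.1% of its list and the highest among the Ov3.1 neighbours. The closest gene of the Ov1.1 neighbour was Cor0157180.1, which the study annotates as CYP78A3-like. CYP78A cytochrome P450s promote organ and seed growth in Arabidopsis. The same gene was the closest gene of an Ov2.1 peak 73.1 kb from the SAUR32 peak, outside the window.

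The Ov2.1 peak of the SAUR32 gene Cor0036810.1 ranked lowest in its own list of all members. It lay in the promoter at tig00007011:2504026-2504369 with 3 fragments (interval 0.619 to 8.77) over 0.276. Its fold enrichment was 3.13 (interval 1.27 to 7.65), with 7 of the 1364 Ov2.1 peaks lower. Its q of 0.0498 was the highest in the list, just within the limit of 0.05, and 24 peaks carried it. An Ov3.1 peak of 3 fragments (fold enrichment 3.47) lay 20.9 kb away at tig00007011:2482808-2483085, and the nearest Ov1.1 peak was 87.2 kb away.

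Within a list, the auxin peaks spread over much of the ranking, from 17.3% (SAUR32) to 70.4% (LAX5) at Ov1.1 and from 0.513% (SAUR32) to 80.0% (PIN7) at Ov2.1. At Ov1.1 their fold enrichments ran from 2.76 to 3.45, around the list median of 3.21. At Ov2.1 they ran from 3.13 to 4.61 with a median of 3.33, against 3.86 for the list. Of the 10 members, 4 were above the median of their own list, namely LAX5, IAA9, PIN7 and the Ov3.1 IAA4 peak. The intervals of all 5 Ov1.1 peaks overlapped between 2.20 and 4.08, and those of the 4 Ov2.1 peaks between 2.01 and 7.65. The order of the members within a stage is therefore not settled by these counts. The intervals treat the background as exact, and their overlap is no test of a difference between peaks.

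The order at Ov1.1 also depended on the measure. By fold enrichment it was LAX5, IAA9, IAA30, YUC10 and SAUR32, and by q it was IAA9, LAX5, SAUR32, YUC10 and IAA30. Between these orders SAUR32 and IAA30 exchanged places, as did LAX5 and IAA9. SAUR32 had the highest background of the Ov1.1 members and IAA30 the lowest of the list. A ratio places a peak with many fragments over a high background low, while p and q also weigh the number of fragments.

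A q of 0.01 or less was reached by 4 of the 5 Ov1.1 members, all but IAA30, where 66% of all Ov1.1 peaks reached it. At Ov2.1 it was reached by 1 of 4, PIN7, against 45.4% of the list, and at Ov3.1 by the IAA4 peak, against 59% of the list. Because the peaks were chosen from lists limited by q, these shares describe the members and carry no test. A q of 0.001 or less was reached by 2 of the 5 Ov1.1 members, IAA9 and LAX5, against 27.5% of that list. It was reached by 0 of the 4 Ov2.1 members (15.1% of the list) and not by the Ov3.1 IAA4 peak (20% of the list).

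The later peaks had a margin of 1 fragment or none. With 1 fragment fewer over the same background, the Ov2.1 peaks of YUC10, IAA4 and SAUR32 would have had a -log10 p below the lowest of their list. With 2 fewer, PIN7 and the Ov3.1 IAA4 peak would have gone too, as would 82.2% of all Ov2.1 peaks, 87.1% of all Ov3.1 peaks and 22.3% of all Ov1.1 peaks. The Ov1.1 members would have stayed with at least 2 fragments fewer, and IAA9 with 7. This margin was common at the later stages: 52.3% of all Ov2.1 peaks and 63.0% of all Ov3.1 peaks would be lost with 1 fragment fewer, against 8.71% at Ov1.1. Whether reads mapped to several places or duplicate reads took part in the 3 fragments of such a peak was not tested.

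**Figure D3:**
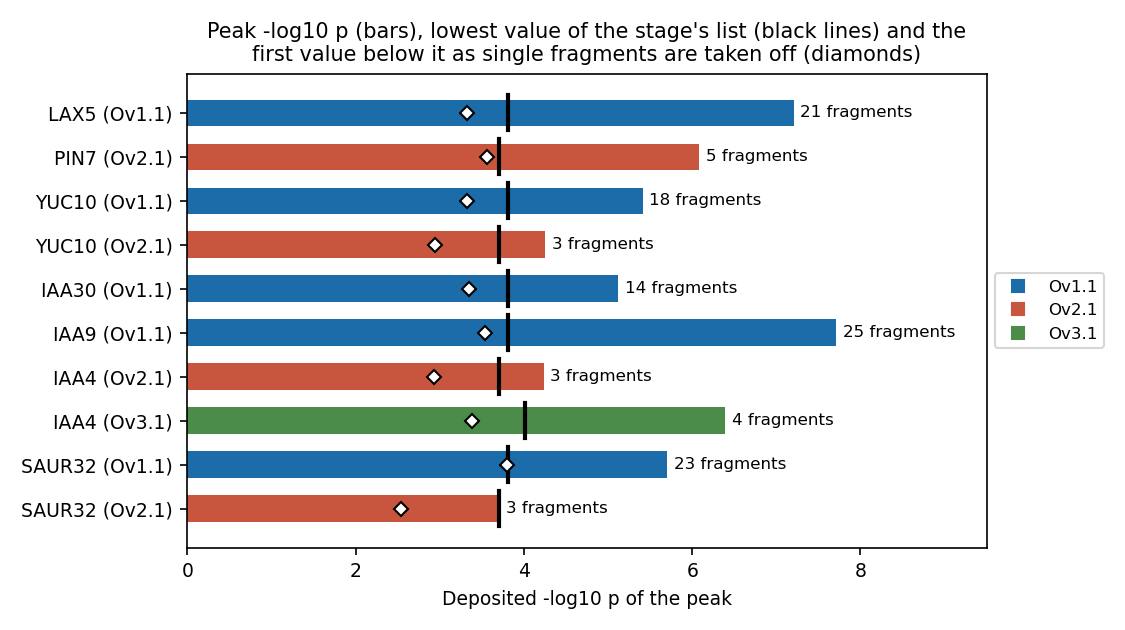
Deposited -log10 p of each auxin gene peak (bars, from 0), the lowest -log10 p in the list of its stage (black lines) and the first value below that line when fragments are taken off one by one at the same background (diamonds). The Ov2.1 peaks of YUC10, IAA4 and SAUR32 fell below the line with 2 fragments in place of 3, whereas LAX5 did so at 14 and IAA9 at 17.

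No auxin gene had a listed peak at the same position at another stage. All 3 lists were searched around each peak, with distances taken between the nearest edges, and every window of 50 kb on either side lay within the span of its contig. None of the 10 peaks overlapped a peak of another stage, and none had one within 5 kb. Over all peaks a direct overlap was rare too, with 0.354% of the Ov1.1 list, 1.17% of the Ov2.1 list and 2.46% of the Ov3.1 list. The share of all peaks with a peak of another stage within 5 kb was not computed.

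Within 50 kb, 8 of the 10 members had another peak, and LAX5 and the Ov2.1 YUC10 had none. By stage these were 4 of 5 members at Ov1.1, where 73.1% of all peaks had a neighbour, 3 of 4 at Ov2.1 (67.4% of all peaks) and the 1 member at Ov3.1 (69.2%). A peak of another stage lay within 50 kb for 6 members. These were IAA9, YUC10, IAA30 and SAUR32 at Ov1.1 (50.9% of all peaks of that list), SAUR32 at Ov2.1 (47.7%) and IAA4 at Ov3.1 (56.6%). Over all members, these counts were near the shares of the whole lists.

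The 10 neighbouring peaks comprised 5 from Ov3.1, 3 from Ov1.1 and 2 from Ov2.1. Of the 5 Ov1.1 members, 4 had a neighbour from Ov3.1, where 25.1% of all Ov1.1 peaks had one. It lay at 5.49 kb for IAA9, 14.8 kb for IAA30, 37.3 kb for YUC10 and 47.3 kb for SAUR32. An Ov2.1 peak lay within 50 kb of 0 of the 5 Ov1.1 members and of 35.4% of all Ov1.1 peaks, and both Ov2.1 neighbours belonged to Ov2.1 members. These shares were read off after the positions were known, rest on 5 genes and carry no test. The closest gene was held for 5 of the 10 neighbours, those from Ov1.1 and Ov2.1, and was another gene than the auxin gene in each. The closest genes of the 5 Ov3.1 neighbours, among them the one 5.49 kb from IAA9, were not used here. The neighbour just inside the window was the Ov1.1 peak 49.2 kb from IAA4 (Ov3.1), and the first outside it was an Ov3.1 peak 57.5 kb from IAA9.

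**Figure D4:**
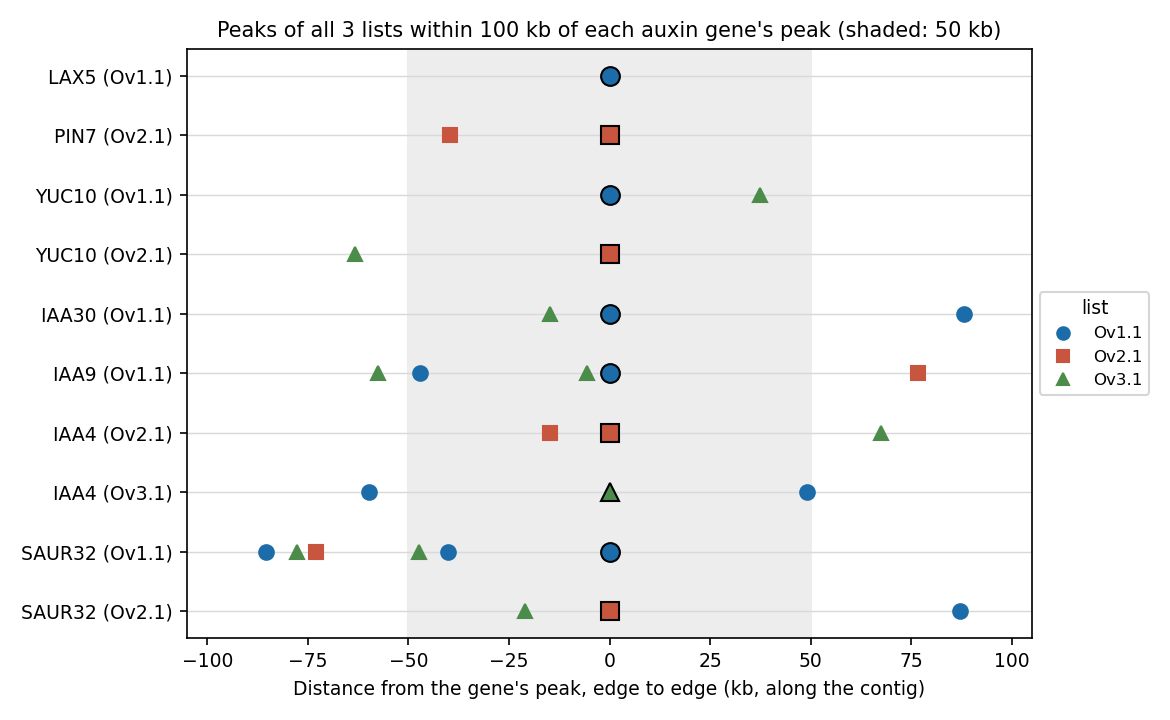
Peaks of the 3 lists within 100 kb of each auxin gene peak, by distance along the contig in kb (outlined symbol at 0: the gene's own peak; symbol and colour: list; grey: the 50 kb window). LAX5 stood alone, the Ov1.1 SAUR32 peak had 2 neighbours in the window, and the nearest peak of another stage was the Ov3.1 peak 5.49 kb from IAA9.

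The symbols YUC10, IAA4 and SAUR32 each stood for a pair of gene models on different contigs, with their peaks at different stages. The YUC10 gene of Ov1.1 had its nearest Ov2.1 peak at 274 kb, and the YUC10 gene of Ov2.1 its nearest Ov1.1 peak at 148 kb. For SAUR32 these distances were 73.1 kb and 87.2 kb. The IAA4 gene of Ov2.1 had its nearest Ov3.1 peak at 67.5 kb, and that of Ov3.1 its nearest Ov2.1 peak at 212 kb. A symbol that recurs between stages therefore did not mark 1 locus bound at both stages. That a gene lacked a peak at another stage does not show absence of ChARF3 there, since each list holds only peaks past its own limit and the lists differ in scale.

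Of the 14 ChARF gene models, 1 had a peak in the annotation held, which left out part of the Ov2.1 peaks and most of the Ov3.1 peaks. The share of all gene models with a peak there was not computed, so whether this count is low or high is not known. The gene with a peak was ChARF8 (Cor0192010.1), an auxin response factor like ChARF3 itself. Its Ov2.1 peak lay in the promoter at tig00007053:34541-34962, with 5 fragments (interval 1.62 to 11.7) over 0.337. The fold enrichment of 4.49 (interval 1.96 to 9.47, q = 0.00376) was above that of 76.2% of the list and close to that of PIN7, with the same number of fragments over a slightly higher background. No other peak lay within 50 kb of it.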

How the data were processed

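Per the study's methods and the labels, reads were filtered and mapped to C. heterophylla contigs by Bowtie2, and MACS2 was given the ChIP and input alignments together, with peaks kept up to a q-value of 0.05 and 1 list deposited per stage. Which input served each list is not stated. Tool versions and duplicate handling are not given in the sources used. For each peak the authors deposited a score (the whole part of 10 times the -log10 q), a fold enrichment (a linear ratio), and p and q on the -log10 scale. Depth per library was not analysed here. In the read counts of the study, the Ov2.1 ChIP library had more mapped reads than the Ov1.1 ChIP library, and the Ov3.1 ChIP library had fewer. The Ov3.1 ChIP library also had the lowest mapped share of all libraries. Why the lists differ in scale was not tested.

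The fragment number n and background were solved from fold enrichment = (n + 1)/(background + 1) and p = the Poisson probability of more than n fragments. A whole n matched the deposited p within 0.01 on the -log10 scale for all 3669 peaks, and the solver was tested on simulated data. Peaks were described within their own list. The genomic class and closest gene are the study's annotation, in words only. All 10 genes, every peak within 50 kb and the ChARF genes were to be named. Genes and lists were chosen with earlier results of these data known. Alternatives were other windows, centre distances, stricter q or fold limits, other rankings and the other Poisson forms. No genome sequence was used. Computation used scipy 1.17.1, pandas 2.3.3 and numpy 2.4.6 under Python 3.11.15, and plots used matplotlib 3.10.9.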

Additional observations from a re-analysis of the deposited data

How the results depend on the processing

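No paired analysis was possible because the results come from no test and each stage had 1 ChIP library. With a window of 25 kb, 4 members had another peak and 3 had one of another stage. A window of 100 kb (9 and 8 members) and distances between peak centres (8 and 6) stayed within 1.5 times the counts for 50 kb, and so did neighbours limited to a q of 0.01 (7 members). Overlap with another stage stayed at 0 within 1 kb and 5 kb. The shares of all peaks were not computed under these other window, distance and neighbour rules, so these counts have no baseline. Of the 10 peaks, 6 were left at a q of 0.01, 2 at a q of 0.001 and 2 at a fold enrichment of at least 4 (PIN7 and the Ov3.1 IAA4 peak), a limit met by 10.1%, 41.6% and 37.1% of the lists in stage order. With 2 fragments fewer, an alternative chosen after seeing the data, 5 were left, and with 1 fewer 7. Ranked by -log10 q, 8 members moved within their list beyond the exact binomial interval of their rank by fold enrichment, and 7 did by -log10 p. With the Poisson tail taken from n instead of above it, or with no pseudocount, the solved number moved out of the Poisson interval for 4 and 5 members, but either form matched the deposited p within 0.01 for 1 member only. Without replicates, precision is limited by the 3 to 25 fragments per peak.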

Other observations

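On contig tig00006933, which holds the Ov2.1 peak of the YUC10 gene Cor0179200.1, the identifiers of the closest genes rose with the coordinate over the 6 peaks whose closest gene was held. They ran from Cor0179070.1 for the peak starting at 147415 to Cor0179400.1 for the one starting at 547573. ChARF3 itself has the identifier Cor0179220.1, which falls between that of the YUC10 gene and that of the next gene in this order, Cor0179350.1, whose first peak starts at 506610. The contig position of ChARF3 was not looked up in an annotation, so whether the YUC10 gene and ChARF3 are neighbours is not known from these data. No Ov1.1 or Ov2.1 peak lay between the YUC10 peak, which ends at 343864, and 506610. The nearest Ov3.1 peak lay 63.3 kb from the YUC10 peak, at lower coordinates. The contig held 3 Ov3.1 peaks in all, and the others, further off, were not placed against this stretch.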
